A study of Mus musculus with 6 samples.

Results

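The 10 genes described here mark oligodendrocyte precursor cells and the lineage they found: Pdgfra, Cspg4, Lhfpl3, Vcan, Neu4, Gpr17, Bcas1, Sox10, Olig1 and Olig2. They were taken by gene name from a table of 54532 genes, all 10 were found, and all 10 had a mean of at least 0.5 FPKM, the floor that 15694 genes met. FPKM is a read count divided by gene length and by a measure of sequencing depth, so levels of different genes can be set side by side. The tissue was cerebral cortex, and the mice were 12 months old. There were 3 libraries labelled Fam69c KO, from mice given as Fam69c-/-, and 3 wild-type (WT) libraries. The labels name no strain, sex or deleted part of Fam69c, nor whether separate mice gave the libraries. The p-values therefore measure only the spread between these libraries, which may be technical. In whole tissue, fewer cells of a type and less RNA per cell cannot be told apart.

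Oligodendrocyte precursor cells are dividing glia that remain in the adult cortex and give rise to the cells that wrap axons in myelin. Platelet-derived growth factor, bound by the receptor that Pdgfra encodes, keeps precursors alive and dividing. As a precursor commits, Pdgfra and Cspg4 are switched off, Gpr17 and Bcas1 come on for a time, and the myelin genes follow. The transcription factors Sox10, Olig1 and Olig2 act at every stage of the lineage, and Olig2 is needed for the lineage to form.

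The 3 promoters below are shown because Olig2 had the largest estimate of the 10 genes, and because Pdgfra and Cspg4 are the genes most used to find precursors. The set of promoter sequences used here, upstream of RefSeq starts on build GRCm38.p6, held 6 of the 10 genes. Each stretch is on the plus strand and ends before both the RefSeq and the GENCODE M21 start of its gene, at chr16:91225300-91225456 for Olig2, chr5:75152001-75152250 for Pdgfra and chr9:56864854-56865032 for Cspg4.
Olig2: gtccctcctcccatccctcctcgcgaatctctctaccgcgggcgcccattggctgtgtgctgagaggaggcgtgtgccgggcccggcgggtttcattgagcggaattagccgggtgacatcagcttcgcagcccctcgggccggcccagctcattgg
Pdgfra: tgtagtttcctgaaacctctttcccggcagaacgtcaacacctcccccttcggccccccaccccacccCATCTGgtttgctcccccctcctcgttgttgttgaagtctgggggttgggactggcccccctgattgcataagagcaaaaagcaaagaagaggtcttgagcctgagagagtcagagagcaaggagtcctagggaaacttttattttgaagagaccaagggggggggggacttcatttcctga
Cspg4: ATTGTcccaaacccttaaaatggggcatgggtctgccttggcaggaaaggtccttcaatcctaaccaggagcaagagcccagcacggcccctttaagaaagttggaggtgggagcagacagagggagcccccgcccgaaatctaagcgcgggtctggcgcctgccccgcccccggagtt
Capitals mark the letters searched on both strands: the E-box CANNTG, read by basic helix-loop-helix proteins such as OLIG1 and OLIG2, and ACAAT, the core read by SOX proteins. The Pdgfra stretch held 1 E-box and 0 SOX cores, the Cspg4 stretch 0 E-boxes and 1 SOX core, and the Olig2 stretch 0 of each. Among 32851 promoters, windows of the same length and place held an E-box in 66.2% for that of Pdgfra, 55.3% for that of Cspg4 and 50.8% for that of Olig2. A SOX core stood in 27.7%, 21.5% and 19.3% of the same windows. These are letter matches in a short window and say nothing of binding.

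Depth was alike, with totals of 30935326 to 35065884 reads. Fam69c itself was present in every library, at 1.54, 1.84 and 1.42 FPKM in the libraries labelled KO, against 2.03, 1.57 and 2.08 FPKM in WT. The groups overlapped, so its RNA does not check the labels, and every direction is between libraries as labelled. Markers of cortical neurons were present in all 6 libraries, and so were 9 markers of striatal neurons, which stood 0.57 log2 units below the mean of the libraries in KO replicate 1 and 1.01 below it in WT replicate 3. Myelin genes were highest in KO replicate 1, at 0.25 log2 units above the mean, and lowest in WT replicate 3, at -0.25.

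Across the lineage genes, 0 of 10 passed an adjusted p of 0.05 between the groups, as did 0 of 15694 genes tested (0%; limma with Benjamini-Hochberg adjustment). Voom on the recovered reads also gave 0 of 15694. At an unadjusted p under 0.05 there were 0 of the 10, where the share of all genes was 3.82%. The estimate was above 0 for 4 genes and below 0 for 6, and 52% of all genes tested had an estimate below 0. The median log2 fold change, libraries labelled KO over WT, was -0.014 for the 10 genes and -0.0042 for all genes, and with TPM scaling the median of the 10 was 0.0037. In 1 of the 10, Lhfpl3, the groups did not overlap, beside 8.87% of all genes. The adjusted p was 0.999 for each of the 10 genes (limma).

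**Figure D1:**
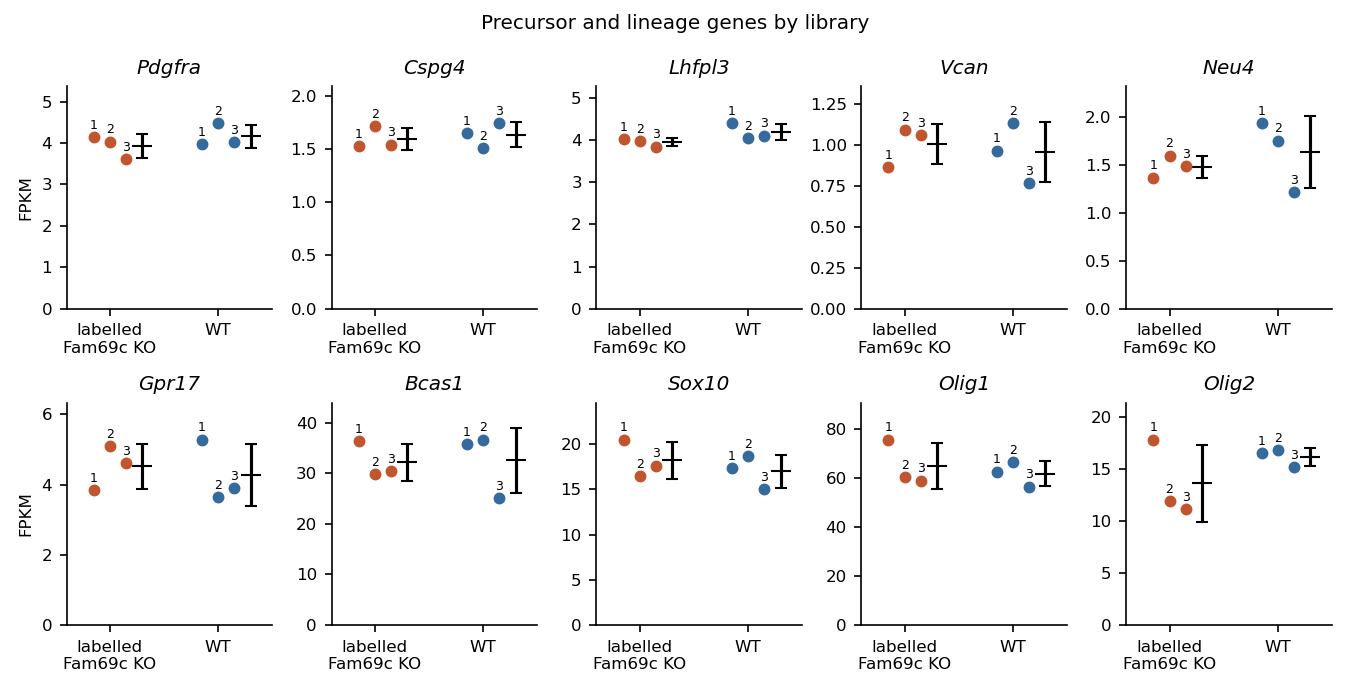
FPKM (vertical axes, from 0) of each gene in the 3 libraries labelled Fam69c KO and the 3 WT libraries, numbered by replicate, with black bars for mean and SD. Lhfpl3 is the panel where the groups do not overlap, and in Olig2 KO replicates 2 and 3 lie below all 3 WT libraries while KO replicate 1 lies above them.

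Among the receptors and surface proteins of precursors, Pdgfra (ENSMUSG00000029231, mm10 chromosome 5, 75152292 to 75198215, plus strand) encodes the receptor that binds platelet-derived growth factor. It read 4.15, 4.03 and 3.61 FPKM in the libraries labelled KO, against 3.97, 4.48 and 4.02 FPKM in WT. The groups overlapped, with KO replicate 3 the lowest and WT replicate 2 the highest. Its log2 fold change, -0.072 (SE 0.08), had a 95% interval from -0.26 to 0.11, and at least 1244 reads lay behind each value. Fibroblasts also express Pdgfra, and of 5 fibroblast markers the 4 tested had a median log2 fold change of -0.15, with 0 past the adjusted threshold. Every library labelled KO lay below every WT library in 2 of the 4 and above in 1, where 8.87% of all genes tested did not overlap. The part of fibroblasts in the Pdgfra value was not tested.

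Cspg4 (chromosome 9, 56865033 to 56899870) encodes the NG2 proteoglycan of the precursor surface. Its level was 1.53, 1.71 and 1.54 FPKM in the libraries labelled KO, against 1.64, 1.51 and 1.74 FPKM in WT. The highest and the lowest of the 6 values were both WT, and the log2 fold change of -0.027 had an interval from -0.24 to 0.18. Pericytes carry NG2 as well, and the 7 pericyte markers, all tested, had a median of 0.051 with 0 past the adjusted threshold. In the libraries labelled KO their mean lay 0.05, -0.07 and 0.11 log2 units from the mean of all libraries, against -0.02, -0.09 and 0.02 in WT. Their part in the Cspg4 value was not tested.

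Lhfpl3 (chromosome 5, 22746059 to 23275597) encodes a membrane protein used as a precursor marker, and it varied least of the 10 genes. It read 4.03, 3.98 and 3.85 FPKM in the libraries labelled KO, against 4.41, 4.06 and 4.11 FPKM in WT, so all 3 libraries labelled KO lay below all 3 WT libraries. The gap between KO replicate 1 and WT replicate 2 was small beside the spread within WT. Among all genes tested, 4.7% had every library labelled KO below every WT library. The estimate was -0.075, with an interval from -0.22 to 0.07, an unadjusted p of 0.263 and an adjusted p of 0.999 (limma).

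Vcan (chromosome 13, 89655312 to 89742509, minus strand) encodes versican, a proteoglycan of the matrix around precursors, and was the lowest of the 10. The libraries labelled KO held 0.867, 1.09 and 1.06 FPKM, against 0.967, 1.14 and 0.769 FPKM in WT. Both extremes were WT libraries, and the interval of the log2 fold change, estimated at 0.054, ran from -0.26 to 0.37. Without WT replicate 3, the lowest, the estimate was -0.042. Neu4 (chromosome 1, 94020451 to 94028334), a sialidase that trims sialic acid from glycans, read 1.37, 1.60 and 1.49 FPKM in the libraries labelled KO, against 1.94, 1.76 and 1.22 FPKM in WT. WT spanned a wider range than the libraries labelled KO and enclosed it. Its log2 fold change was -0.093 with an interval from -0.44 to 0.25, from 187 to 281 reads per library, the fewest of the 10 genes. It was -0.24 without WT replicate 3 and 0.010 without WT replicate 1, the lowest and the highest of the 6 values.

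Gpr17 and Bcas1 mark cells on the way from precursor to oligodendrocyte. Gpr17 (chromosome 18, 31942997 to 31949636, minus strand) encodes a G protein-coupled receptor that holds back maturation. It read 3.84, 5.10 and 4.61 FPKM in the libraries labelled KO, against 5.28, 3.64 and 3.90 FPKM in WT. The values of the groups interleaved, and the log2 fold change of 0.080 had an interval from -0.28 to 0.43. In GENCODE M21 Gpr17 shares 188 exon bases with Lims2 on the other strand, which read between 3.22 and 4.04 FPKM. The sources used here do not say whether counting used strand, so reads of the pair may not be separated there.

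Bcas1 (chromosome 2, 170346991 to 170427845, minus strand) is expressed in newly formed oligodendrocytes that are starting to myelinate. The libraries labelled KO held 36.4, 29.8 and 30.4 FPKM, against 35.8, 36.7 and 25.2 FPKM in WT. KO replicate 1 stood with WT replicates 1 and 2 at the top, and WT replicate 3 was alone at the bottom. The log2 fold change was -0.0021, with an interval from -0.37 to 0.36. Without WT replicate 3 and KO replicate 1 it was -0.27 (limma unadjusted p = 0.00172, adjusted p = 0.223), in a fit where 13.3% of all genes had an unadjusted p under 0.05. Those were its lowest WT library and its highest library labelled KO, so leaving them out can only lower the estimate.

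Of the transcription factors, Sox10 (chromosome 15, 79154908 to 79165240, minus strand) drives the myelin genes directly. It read 20.5, 16.5 and 17.6 FPKM in the libraries labelled KO, against 17.3, 18.7 and 15.02 FPKM in WT. KO replicate 1 was the highest and WT replicate 3 the lowest, as for the myelin genes. The estimate was 0.095, with an interval from -0.15 to 0.34, and it was -0.076 without those 2 libraries. Olig1 (chromosome 16, 91269772 to 91271933), which promotes maturation and repair of myelin, had the highest level of the 10 genes. Its values were 75.5, 60.3 and 58.7 FPKM in the libraries labelled KO, against 62.5, 66.2 and 56.4 FPKM in WT. KO replicate 1 was again the highest and WT replicate 3 the lowest. Its estimate was 0.065, with an interval from -0.19 to 0.32, and it was -0.11 without those 2 libraries. For both genes, leaving out the highest and the lowest library in this way can only lower the estimate.

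Olig2 (ENSMUSG00000039830, chromosome 16, 91225457 to 91228677, plus strand) lies 41094 bases upstream of Olig1 on the same strand and had the largest estimate and the largest spread of the 10 genes. It read 17.8, 11.9 and 11.1 FPKM in the libraries labelled KO, against 16.5, 16.8 and 15.1 FPKM in WT. KO replicates 2 and 3 were below every WT library, and KO replicate 1 was above every one. The mean was 13.6 ± 3.67 FPKM in the libraries labelled KO and 16.1 ± 0.878 FPKM in WT (SD, n = 3 each). On the log2 scale the difference was -0.27 (SE 0.17), with an interval from -0.66 to 0.13 and an unadjusted p of 0.152 (limma). At least 1005 reads lay behind each value, and no other gene shares exon bases with Olig2 in GENCODE M21.

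The Olig2 estimate depended on single libraries labelled KO. Without KO replicate 1 it was -0.47 (limma unadjusted p = 0.000508, adjusted p = 0.498), in a fit where 5.74% of all genes had an unadjusted p under 0.05. Without KO replicate 3 it was -0.14. With WT replicate 3 also left out beside KO replicate 1 it was -0.51 (limma adjusted p = 0.211). These were the lowest WT library and the highest library labelled KO for Olig2, so leaving them out can only lower the estimate. Over 20 alternatives the estimate kept its sign, and the smallest adjusted p was 0.211 (limma). Those that changed the filter, gene types, variance model or block cannot change the estimate, and median-ratio scaling hardly moved it. The mean of the myelin genes lay 0.25, -0.07 and -0.07 log2 units from the mean of all libraries in the libraries labelled KO, against -0.02, 0.17 and -0.25 in WT. With that mean as a covariate the Olig2 estimate was -0.34 (limma unadjusted p = 0.0275, adjusted p = 0.736), in a fit where 6.73% of all genes had an unadjusted p under 0.05.

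**Figure D2:**
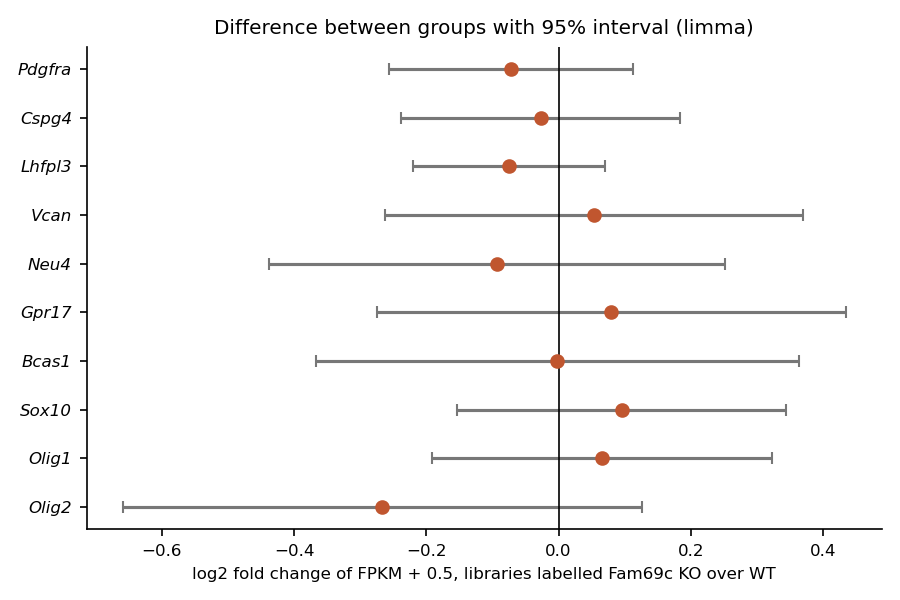
Log2 fold change (horizontal axis, libraries labelled Fam69c KO over WT, on FPKM + 0.5) of each gene with its 95% interval from limma. All 10 intervals include 0, and Olig2 has the lowest estimate, -0.27, and the widest interval.

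Olig2 was also read against the other lineage genes within each library, a comparison chosen after its values were seen. Relative to Olig1, Olig2 stood at 0.236, 0.198 and 0.189 in the libraries labelled KO, against 0.264, 0.254 and 0.269 in WT. Relative to Sox10, it stood at 0.869, 0.722 and 0.631 in the libraries labelled KO, against 0.951, 0.9001 and 1.01 in WT. In both ratios all 3 libraries labelled KO, KO replicate 1 included, lay below all 3 WT libraries. The means of the ratio to Olig1 were 0.208 ± 0.0250 in the libraries labelled KO and 0.262 ± 0.00767 in WT (SD, n = 3 each).

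Of 45 pairs among the 10 genes, these 2 were the pairs whose groups did not overlap, counted in either direction. The 2-sided exact permutation p was 0.1 for each, the smallest that 3 against 3 libraries can give, and 1 after adjustment over the 45 pairs. When read against Olig1, 4.91% of all genes tested lay lower in every library labelled KO than in every WT library. When read against Sox10, 6.2% did. These shares count 1 direction only, unlike the count over the 45 pairs. The 2 ratios were not separate results, since the ratio of Olig1 to Sox10 varied little. It was 3.68, 3.65 and 3.33 in the libraries labelled KO, against 3.60, 3.55 and 3.75 in WT. Against the other 7 genes the ratio of Olig2 overlapped between the groups, with a ratio to Bcas1 of 0.490, 0.400 and 0.366 in the libraries labelled KO, against 0.460, 0.458 and 0.602 in WT.

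**Figure D3:**
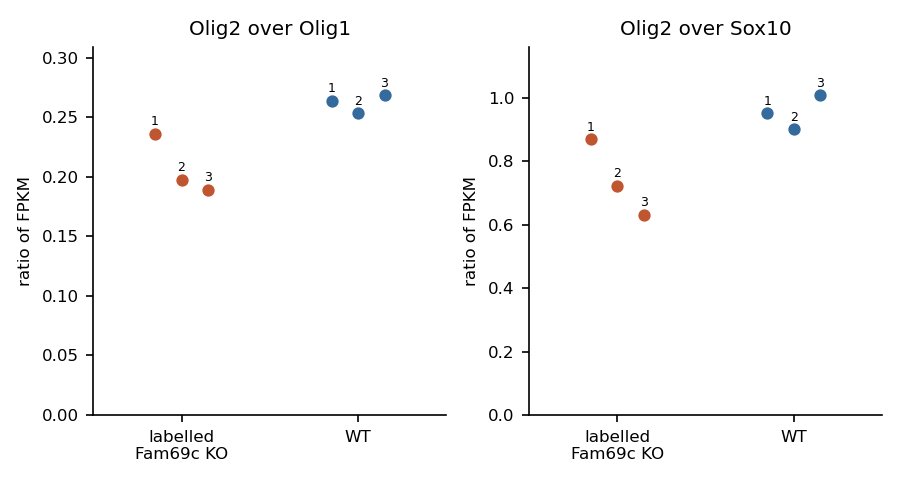
Olig2 FPKM divided by Olig1 FPKM (left) and by Sox10 FPKM (right) in each library, numbered by replicate, with vertical axes from 0. In both panels the 3 libraries labelled Fam69c KO lie below the 3 WT libraries, and KO replicate 1, at 0.236 and 0.869, is nearest to WT.

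The order of the levels was nearly the same in both groups. In the libraries labelled KO it ran from Olig1 (mean 64.8 FPKM) through Bcas1 (32.2), Sox10 (18.2), Olig2 (13.6), Gpr17 (4.52), Lhfpl3 (3.95), Pdgfra (3.93), Cspg4 (1.59) and Neu4 (1.48) to Vcan (1.01). In WT the means were 61.7, 32.6, 17.0, 16.1, 4.27, 4.19, 4.16, 1.63, 1.64 and 0.957 FPKM for the same genes, so that Cspg4 and Neu4 changed places. In both groups the ranges over libraries overlapped between Sox10 and Olig2, between Gpr17 and Lhfpl3, between Lhfpl3 and Pdgfra, and between Cspg4 and Neu4. Read within libraries, Sox10 was above Olig2 in 5 libraries, all 3 labelled KO and 2 WT, and Cspg4 was above Neu4 in all 3 labelled KO and in 1 WT library. Gpr17 was above Lhfpl3 in 2 libraries labelled KO and 1 WT library, and Lhfpl3 above Pdgfra in 1 labelled KO and 2 WT.

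The genes differed in how much they moved between libraries whatever the group. Lhfpl3, Cspg4 and Pdgfra had coefficients of variation over the 6 libraries of 4.62%, 6.30% and 6.95%. Sox10 and Olig1 followed at 10.6% and 10.9%, Bcas1 and Vcan at 14.5% each, Gpr17 at 16.0%, Neu4 at 16.8% and Olig2 at 18.5%. On the log2 scale the SD of Lhfpl3 exceeded that of 14.5% of all genes tested and the SD of Olig2 that of 89.0%.

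WT replicate 3 held the lowest value of 5 of the 10 genes, namely Olig1, Sox10, Bcas1, Neu4 and Vcan, and the highest of 1, Cspg4. KO replicate 1 held the highest value of Olig1, Olig2 and Sox10 and the lowest of none of the 10. KO replicate 3 held the lowest value of Pdgfra, Lhfpl3 and Olig2. KO replicate 2 was at neither end for any of the 10 genes. The libraries at the ends were thus the same for Olig1, Sox10 and the mean of the myelin genes, and others for Pdgfra, Lhfpl3 and Gpr17. For Cspg4, WT replicate 3 was at the opposite end, as the highest.

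**Figure D4:**
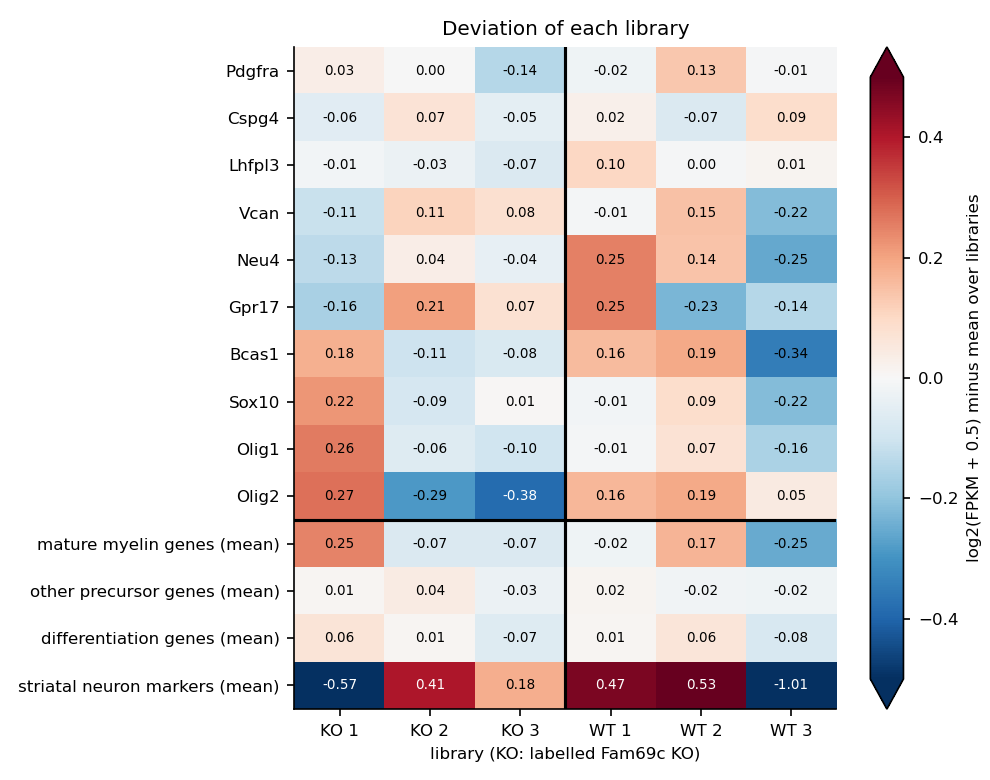
Deviation of each library (columns) from the mean of the 6 libraries in log2(FPKM + 0.5), for the 10 genes (above the line) and for the means of 4 other lists. Olig1 and Sox10 are highest in KO replicate 1 and lowest in WT replicate 3, as the myelin genes are (0.25 and -0.25), while the other precursor genes stay between -0.03 and 0.04.

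Other genes of the same biology were read from lists. Of 14 other precursor genes, 0 passed the adjusted threshold, 9 estimates were above 0 and the median log2 fold change was 0.029. Tnr, which encodes the matrix protein tenascin-R, read 15.2 ± 0.793 FPKM in the libraries labelled KO and 13.7 ± 0.779 FPKM in WT (SD, n = 3 each), with groups that did not overlap (log2 fold change 0.15, limma unadjusted p = 0.0448, adjusted p = 0.999). Of all genes tested, 4.17% had every library labelled KO above every WT library, and 1.63% had an unadjusted p under 0.05 with an estimate above 0. Of 12 genes of differentiation 11 were tested and 0 passed, with a median of -0.043. The smallest p of that list was that of Enpp6, a phosphodiesterase of newly formed oligodendrocytes, at 1.17 ± 0.224 FPKM in the libraries labelled KO and 0.889 ± 0.159 FPKM in WT, with overlapping groups. KO replicate 1 was the highest and WT replicate 3 the lowest. The log2 fold change was 0.26 with them and 0.091 without them, a fall set by which libraries were left out. Of 5 genes for PDGF ligands and the beta receptor 0 passed, with a median of -0.037, which was 0.028 without WT replicate 3 and KO replicate 1. Pdgfc, a ligand of the alpha receptor, had the smallest p of these, with a log2 fold change of 0.14 and an interval from -0.16 to 0.45.

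The list of 5 genes that hold back differentiation had 5 estimates below 0, beside 52% of all genes tested. Their median was -0.22, again with 0 past the adjusted threshold. Without WT replicate 3 and KO replicate 1, a fit that reuses the other libraries, the 5 estimates were below 0. Their median was then -0.10 and the smallest in size was -0.00034, and 8238 of all 15694 genes had an estimate below 0 in that fit. Hes5, a Notch target, read 5.91 ± 0.261 FPKM in the libraries labelled KO and 7.29 ± 0.641 FPKM in WT, with groups that did not overlap (log2 fold change -0.28, limma unadjusted p = 0.00807, adjusted p = 0.999). Id2, which binds and blocks basic helix-loop-helix proteins, read 43.2 ± 4.95 FPKM in the libraries labelled KO and 50.1 ± 1.56 FPKM in WT (log2 fold change -0.22, limma unadjusted p = 0.0353, adjusted p = 0.999). Of all genes tested, 4.7% had every library labelled KO below every WT library. An unadjusted p under 0.05 with an estimate below 0 was found for 2.19%. Without WT replicate 3 and KO replicate 1, Hes5 was at -0.20 (limma unadjusted p = 0.0582) and Id2 at -0.30 (limma unadjusted p = 0.00313). In that fit 13.3% of all genes had an unadjusted p under 0.05. Astrocytes express both genes too. The 7 astrocyte markers had a median of -0.036, with 5 estimates below 0 and 2 above. They ran from -0.21 for Gfap to 0.22 for Aldh1l1. The part of astrocytes in the Hes5 and Id2 values was not tested.

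Of the 17 genes of mature myelin 0 passed the adjusted threshold, 13 estimates were above 0 and the median was 0.045. Without KO replicate 1 and WT replicate 3, the highest and the lowest library of this list, 2 of the 17 estimates were above 0. The median was then -0.13, beside -0.0086 for all genes in that fit. Leaving out these libraries had to lower the mean estimate of the list, whatever the genotype. Trf, which encodes transferrin, had the smallest p of that list, at 4.597 ± 0.439 FPKM in the libraries labelled KO and 3.75 ± 0.675 FPKM in WT (SD, n = 3 each). It too was highest in KO replicate 1 and lowest in WT replicate 3. Its log2 fold change was 0.27 with them and 0.12 without them, a fall set by which libraries were left out. Of 6 markers of dividing cells 1 was tested, Pcna, with a log2 fold change of -0.017. Mki67, a marker of cycling cells, averaged 0.0840 FPKM in the libraries labelled KO and 0.0865 FPKM in WT, from 20 to 34 reads per library, and was under the floor for testing.

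**Figure D5:**
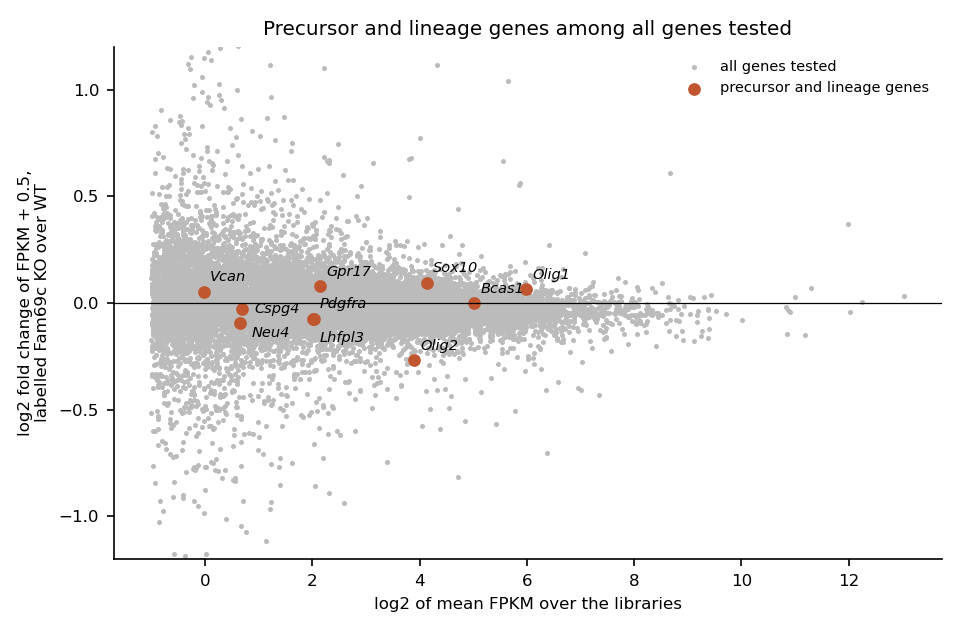
Log2 fold change (vertical axis, libraries labelled Fam69c KO over WT, on FPKM + 0.5) against the log2 of mean FPKM (horizontal axis) for the 15694 genes tested (grey) and the 10 lineage genes (orange). The axis stops at 1.2, which leaves out 21 genes. The 10 lineage genes lie between -0.27 and 0.095, with Olig2 the lowest of the 10. Other genes tested at a like level lie lower than Olig2. The points of Pdgfra and Lhfpl3 lie on top of each other.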

How the data were processed

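Cerebral cortex RNA was sequenced in 3 libraries labelled Fam69c KO and 3 WT libraries. Trizol was used for extraction and an Illumina TruSeq RNA kit for the libraries, per the labels' protocols. Bowtie, with no version, and build mm10 are named in the submitters' processing notes. For the counting program, annotation and use of strand, no statement is given in the sources used here. The authors deposited 1 table of FPKM values, with 1 column per library. In every library 100% of the values above 0, times gene length, were whole multiples of a single step within 0.001, which gave the reads. Per library, FPKM times gene length summed to 0.979 to 1.01 of what division by those reads would give. The depth measure behind the deposited values was therefore not exactly their total. All 10 genes have the same start and end in GENCODE M21.

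The steps from here on were computed from the deposited FPKM. Those averaging 0.5 FPKM or more were tested with limma 3.58.1 (R 4.3.3) on log2(FPKM + 0.5), a scale that understates the fold changes of low genes. The model compared genotypes with a variance trend and no block, two-sided, with Benjamini-Hochberg adjustment over all 15694 genes and a threshold of 0.05. Mean and SD are joined by ±. The genes, the lists and the libraries left out together were chosen with earlier results of these data known. Beyond the 10 genes, Fam69c was named, and in each list the genes with an unadjusted p under 0.05 or, with none, the one with the smallest p, and 3 genes most like the mean of the 10. Mki67, Lims2, Rbfox3, Rps27rt and Gm47283 fall outside this rule, and 1 gene that it picks is not reported here. Replicates of a group differed by more than sampling noise, with a median chi-square of at least 3.04 times that of counting alone. Alternatives changed the pseudocount, filter, scaling, gene types, variance model, sample weights, block, covariates, libraries, or used voom on the recovered reads. Plots were drawn with matplotlib 3.10.9.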

Additional observations from a re-analysis of the deposited data

How the results depend on the processing

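Under 20 alternatives 0 of the 10 genes passed the adjusted threshold, and the median of the 10, -0.014, ran from -0.11 to 0.036, each a shift smaller than the spread between libraries (SD 0.0914). Of all genes 1 passed among protein-coding genes only (Rps27rt) and 1 without WT replicate 3 and KO replicate 1 together (Gm47283), against 0 otherwise. Signs turned as follows, with the cause not tested. Bcas1 was 0.020 with TPM scaling and 0.014 with voom. With sample weights Cspg4 was 0.023, Olig1 -0.015 and Sox10 -0.0073. Without both of those libraries Cspg4 was 0.033, Olig1 -0.11 and Sox10 -0.076. Leaving out 1 library at a time, log2 fold changes ran from -0.069 to 0.010 for Cspg4, -0.049 to 0.13 for Olig1, -0.015 to 0.23 for Gpr17, -0.24 to 0.010 for Neu4, -0.042 to 0.14 for Vcan and -0.17 to 0.093 for Bcas1, and kept their sign for Pdgfra, Olig2, Lhfpl3 and Sox10.

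Same-numbered libraries had correlations of their deviations over genes of 0.08, 0.01 and 0.21, and KO replicates 1 and 2 correlated best with another number, so the numbers were not taken as pairs. With a replicate block 0 genes passed, and 837 had an unadjusted p under 0.05 against 599 without it. Since each number occurs in both groups, the block cannot change the estimates, and Olig2 was at -0.27 (limma adjusted p = 0.909). The count at an unadjusted p under 0.05 was 1420 with sample weights and 534 with voom. With 3 libraries per group the half-width of a gene's 95% interval had a median of 0.21 log2 units. Depth was lowest for Neu4 among the 10 genes, at 187 reads in its lowest library. Leaving out WT replicate 3 and KO replicate 1 was applied to the other gene lists after seeing the data. The medians of 4 of them changed sign or shifted by more than their spread: myelin genes, differentiation brakes, PDGF genes and striatal markers. For the myelin genes a fall was set by that choice.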

Other observations

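The 3 genes whose pattern over the 6 libraries was most like the mean of the 10 lineage genes were Ost4, Cers1 and Dad1, with Pearson correlations of 0.995, 0.993 and 0.990. Of 13475 genes compared 414 had a correlation above 0.9, so over 6 libraries a correlation above 0.9 was not particular to these 3 genes. Cers1, a ceramide synthase, read 20.2, 18.0 and 16.8 FPKM in the libraries labelled KO, against 21.995, 20.5 and 14.7 FPKM in WT.

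Markers of other cells of the cortex had 0 genes past the adjusted threshold in limma. Of 7 astrocyte markers, Aldh1l1, a folate enzyme, read 13.996 ± 1.06 FPKM in the libraries labelled KO and 11.9 ± 0.741 FPKM in WT, with groups that did not overlap (limma unadjusted p = 0.0190, adjusted p = 0.999). It was highest in KO replicate 1 and lowest in WT replicate 3. Its log2 fold change was 0.22 with them and 0.13 without them (limma unadjusted p = 0.108), a fall set by which libraries were left out. In 2 of the 7 astrocyte markers every library labelled KO lay above every WT library, beside 4.17% of all genes tested. Gfap, an intermediate filament of astrocytes, read 31.7 ± 2.9998 FPKM in the libraries labelled KO and 36.6 ± 1.96 FPKM in WT (limma unadjusted p = 0.0320, adjusted p = 0.999). Of the 7 astrocyte markers 5 had an estimate below 0. Of 7 cortical neuron markers 5 had an estimate below 0, with a median of -0.043. Neurod6, a transcription factor of cortical neurons, had a log2 fold change of 0.13 (limma unadjusted p = 0.0351, adjusted p = 0.999), with every library labelled KO above every WT library. Rbfox3, the neuronal marker NeuN, had the opposite order, with a log2 fold change of -0.14 (limma unadjusted p = 0.0544, adjusted p = 0.999). The order of Neurod6 was found in 4.17% of all genes tested and that of Rbfox3 in 4.7%.

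Of the 4 fibroblast markers tested 3 had an estimate below 0, Lum being the exception at 0.29, which was also the smallest p of the list. Of 7 pericyte markers 5 were above 0, with Abcc9, at 0.14, having the smallest p. Of 9 striatal neuron markers 6 were above 0, with a median of 0.041, while Tac1, with the smallest p, was at -0.18. Without WT replicate 3 and KO replicate 1 the striatal estimates were below 0 for 9 of 9, with a median of -0.19.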
